A study of Caenorhabditis elegans with 6 samples.

Results

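The genes described here encode subunits of ligand-gated ion channels of the Cys-loop family in the nematode Caenorhabditis elegans, the family to which the mutated eat-2 also belongs. Members were all listed genes named acr or lgc with a number, together with unc-29, unc-38, unc-63, lev-1, lev-8, deg-3, des-2, unc-49, exp-1 and mod-1, while eat-2 itself was left out. This gave 84 genes of 46245 listed, made up of 21 acr genes, 53 lgc genes and 10 genes with other names, and all 84 are annotated as protein-coding. Whole animals of 2 strains were grown at 20 °C to the late L4 larval stage, and RNA was sequenced in 3 libraries per strain. The reference strain, DCL33, was a double mutant with the alleles ad465 of eat-2 and tm3232 of acs-20. DCL289, the triple mutant, had both of these alleles plus mkc18 of ptr-8. The comparison therefore asked what differs when ptr-8, which encodes a membrane protein related to Patched, is mutated on a background that already lacks normal eat-2 and acs-20. No strain with wild-type eat-2 was analysed here, so the effect of eat-2 on its relatives was not measured. Whether replicates came from separate cultures is not stated, so the spread behind every p-value is that of these libraries alone and may be technical.

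Cys-loop channels are rings of subunits that open an ion pore when a transmitter binds outside the membrane. In C. elegans the family is large and includes acetylcholine-gated cation channels, acetylcholine-gated chloride channels, and channels gated by GABA, serotonin, tyramine and dopamine. At the body wall neuromuscular junction, levamisole-sensitive receptors built from UNC-29, UNC-38, UNC-63, LEV-1 and LEV-8 and a nicotine-sensitive receptor built from ACR-16 excite the muscle, and the UNC-49 GABA receptor relaxes it. EAT-2 works in the pharynx, where it sets the rate of pumping.

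Levels are FPKM (fragments normalised to transcript length and library size) divided by a scaling factor per library, called scaled FPKM here. Values per library are given in the order of replicates 1, 2 and 3. Between 14883 and 15461 genes per library reached a deposited FPKM of 1. ptr-8 itself was at 21.8 ± 3.23 (SD, n = 3) in the reference strain and 5.12 ± 0.614 in the triple mutant (log2 fold change -1.89, limma adjusted p = 0.005422). In these libraries 10 body wall muscle marker genes had a mean log2 level of 7.20, 7.27 and 7.28 in the reference strain and 7.24, 7.35 and 7.30 in the triple mutant. The 12 neuron markers were at 4.19, 4.42 and 4.35 and at 4.19, 4.32 and 4.27. Among them 1, unc-64 (log2 fold change -0.31), had an unadjusted p below 0.05 in limma. Other marker lists were less even between libraries, although 0 of their genes were called in limma. The 7 oocyte markers, of which 6 had an unadjusted p below 0.05 (20.7% of all genes tested did), were at 5.37, 5.22 and 4.33 and at 5.64, 5.89 and 6.11. Of the 4 adult-stage collagens 2 had an unadjusted p below 0.05, and the list was at 8.22, 7.27 and 6.29 and at 8.68, 8.23 and 8.62. The 8 sperm markers, 1 of them at an unadjusted p below 0.05, were at 7.38, 6.42 and 6.53 and at 7.50, 6.91 and 7.20. Of 7 intestine markers 4 had an unadjusted p below 0.05, and the list was at 7.26, 7.51 and 7.44 and at 7.23, 7.35 and 7.24. The 7 epidermis markers were at 6.90, 7.51 and 7.38 and at 6.85, 7.36 and 7.1002. Of 6 pharyngeal muscle markers, the 5 that were tested (all but ceh-22) were at 4.88, 4.57 and 4.18 and at 4.44, 4.87 and 4.28. The part of these markers in the values below was not tested. In whole animals, fewer cells of a type and less RNA per cell cannot be told apart.

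A few lgc genes and unc-49 carried most of the family's signal. Only 6 members, lgc-22, lgc-21, unc-49, lgc-27, lgc-34 and lgc-32, were at 10 or more in every library, and no other member reached 10 in any. Another 30 members lay between 1 and 10 in every library, 22 reached 1 in some libraries only, and 26 stayed under 1 in all 6. The summed level of all members was 392, 435 and 445 in the reference strain and 370, 400.4 and 352 in the triple mutant. The first 5 genes of that order made up 66.9%, 64.01% and 68.0% of the sum in the reference strain and 62.8%, 62.1% and 57.8% in the triple mutant. The 51 members that passed the filter on level (1 or more in 3 or more libraries) had a median of 2.35, against 18.8 over the 15205 genes that passed, and 45 of the 51 (88.2%) averaged under 10, against 33.8% of all genes that passed. The fragment number implied by the deposited interval of each FPKM had a median over the 51 tested members of 26.9 to 114 per library, against 164 to 476 over all genes tested. Over all 84 members it was 15.2 to 60.8.

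**Figure D1:**
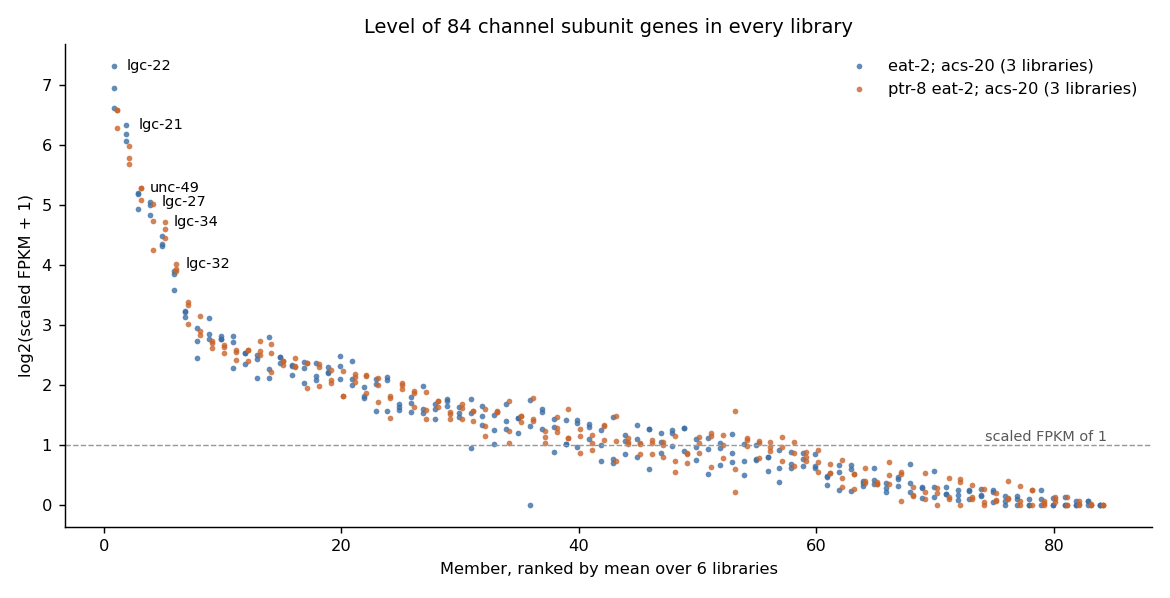
Level of each of the 84 subunit genes in each library, as log2(scaled FPKM + 1), against its rank by mean over the 6 libraries; blue points are the reference strain and orange points the triple mutant, and the dashed line marks a scaled FPKM of 1. The first 6 members stand above all others in every library, and the point at 0 near rank 36 is lgc-19 in reference replicate 3.

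The most abundant member was lgc-22 (WBGene00017483, chromosome IV, 4301308 to 4304460, plus strand). It was at 96.6, 122 and 158 in the reference strain and at 94.1, 94.1 and 76.8 in the triple mutant. lgc-21 (WBGene00007903, chromosome X, 14064315 to 14067984, minus strand) was at 79.0, 71.1 and 66.1 and at 53.7, 62.4 and 50.04. lgc-22 was above lgc-21 in each of the 6 libraries, by 1.22-fold to 2.39-fold. Strains did not overlap for lgc-21, and for lgc-22 the nearest libraries of the strains were at 96.6 and 94.1. In both genes the triple mutant libraries were all below, as in 14.1% of all genes tested. lgc-27 (chromosome II, 4649094 to 4653276) was at 32.0, 31.1 and 27.5 and at 25.6, 31.2 and 18.1. lgc-34 (chromosome II, 526592 to 530364) was at 18.9, 19.3 and 21.2 and at 20.8, 23.1 and 25.2. lgc-32 (chromosome X, 673027 to 676484) was at 10.99, 13.96 and 13.4 and at 13.8, 15.2 and 14.2. Strains overlapped for lgc-27, lgc-34 and lgc-32. lgc-27 shares 108 exonic bp with fut-6, and lgc-32 shares 71 with T19D7.7, on the opposite strand. lgc-43 followed at 7.78, 8.42 and 8.30 and at 7.104, 9.05 and 9.36. lgc-45 was at 4.45, 5.65 and 6.71 and at 6.45, 7.89 and 6.10, but the gene in the files covers 3566028 to 3567396 of chromosome II and the annotated gene starts at 3557472, so its FPKM may rest on a partial model. Strains overlapped for both.

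The 5 subunits of the levamisole receptor were all measured above the filter, but not at equal levels. unc-29 (chromosome I, 8897611 to 8901435), a subunit the receptor cannot do without, was at 5.81, 5.80 and 6.07 in the reference strain and at 5.35, 5.17 and 4.80 in the triple mutant. lev-1 (chromosome IV, 13174171 to 13179383) was at 3.84, 5.55 and 6.005 and at 4.96, 4.84 and 4.30. unc-63 (chromosome I, 5141675 to 5149226), an alpha subunit, was at 3.35, 4.63 and 4.39 and at 4.67, 4.91 and 5.60. unc-29 was above lev-1 in 6 of 6 libraries, by 1.01-fold to 1.51-fold, and unc-63 was below both in each reference library but above both in triple mutant replicate 3. The order of these 3 genes thus did not hold beyond their spread. The other alpha subunits were lower. unc-38 (chromosome I, 4897367 to 4900977) was at 1.89, 2.95 and 2.01 and at 2.01, 2.67 and 1.68. lev-8 (chromosome X, 11560915 to 11563708) was at 1.88, 2.40 and 0.918 and at 1.64, 1.96 and 1.95. unc-29 exceeded unc-38 in 6 of 6 libraries by 1.94-fold to 3.07-fold, and unc-63 exceeded lev-8 in 6 of 6 by 1.78-fold to 4.79-fold. The low lev-8 value of reference replicate 3 stood on 13.1 implied fragments. acr-8, a close relative of lev-8, averaged 3.72.

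Of these 5 subunits 0 passed the test for a strain difference (adjusted p below 0.05), which 2.29% of all genes tested did. unc-29 was lower and unc-63 higher in all 3 triple mutant libraries than in any reference library, a separation that 14.1% (lower) and 13.6% (higher) of all genes tested had. Their log2 fold changes were -0.18 (SE 0.10, adjusted p = 0.379) and 0.25 (SE 0.15, adjusted p = 0.383), and without reference replicate 1 that of unc-63 was 0.13. lev-1, unc-38 and lev-8 overlapped between strains, at log2 fold changes of -0.09, -0.07 and 0.10. Each of those last 3 estimates took the other sign in at least 1 fit with 1 library left out. Fold changes throughout are triple mutant minus reference on log2(scaled FPKM + 1), which understates changes of genes as low as these, and adjusted p-values are from limma over all 15205 genes.

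acr-16 (chromosome V, 8561216 to 8564320), the subunit of the nicotine-sensitive muscle receptor, lay at the level of the main levamisole receptor subunits. It was at 3.35, 5.93 and 3.83 and at 3.66, 4.80 and 5.40, and the strains overlapped (log2 fold change 0.08, 95% interval -0.45 to 0.62). Its neighbour acr-15, of the same subfamily, was at 3.04, 3.29 and 1.94 and at 2.29, 2.98 and 3.31. Of 10 subfamily members, acr-16, acr-15, acr-11 and acr-19 passed the filter. The other 6, acr-7, acr-9, acr-10, acr-14, acr-21 and acr-25, fell under it. The acr-21 gene in the files covers 6583511 to 6585617 of chromosome III, and the annotated gene 6581885 to 6586580. Its FPKM may thus rest on a partial model.

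acr-2, acr-3 and acr-12 encode subunits of an acetylcholine receptor of the cholinergic motor neurons, which also takes UNC-38 and UNC-63. acr-12 (WBGene00000051, chromosome X, 13532921 to 13536394) was at 2.21, 1.99 and 2.08 in the reference strain and at 2.79, 3.11 and 3.00 in the triple mutant. All 3 triple mutant libraries were above all 3 of the other strain, as in 13.6% of all genes tested. acr-2 (WBGene00000042, chromosome X, 6702692 to 6709302) was at 1.40, 1.93 and 2.01 and at 1.03, 1.35 and 1.18. Here the triple mutant libraries were all below, as in 14.1% of all genes tested. The log2 fold changes were 0.36 for acr-12 (SE 0.12, 95% interval 0.06 to 0.65, unadjusted p = 0.0244, adjusted p = 0.188) and -0.34 for acr-2 (SE 0.16, 95% interval -0.73 to 0.05, adjusted p = 0.289), and neither passed in limma. acr-3, which starts 235 bp after acr-2 ends on the same strand, varied widely between libraries, at 0.638, 1.26 and 0.828 and at 0.517, 0.158 and 1.96, and fell under the filter. The ratio of acr-2 to acr-3 ran from 0.603 in triple mutant replicate 3 to 8.55 in its replicate 2, so 2 libraries of 1 strain marked both ends of the range. acr-3 stood on 9 implied fragments in replicate 2 and 42.4 in replicate 3.

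**Figure D2:**
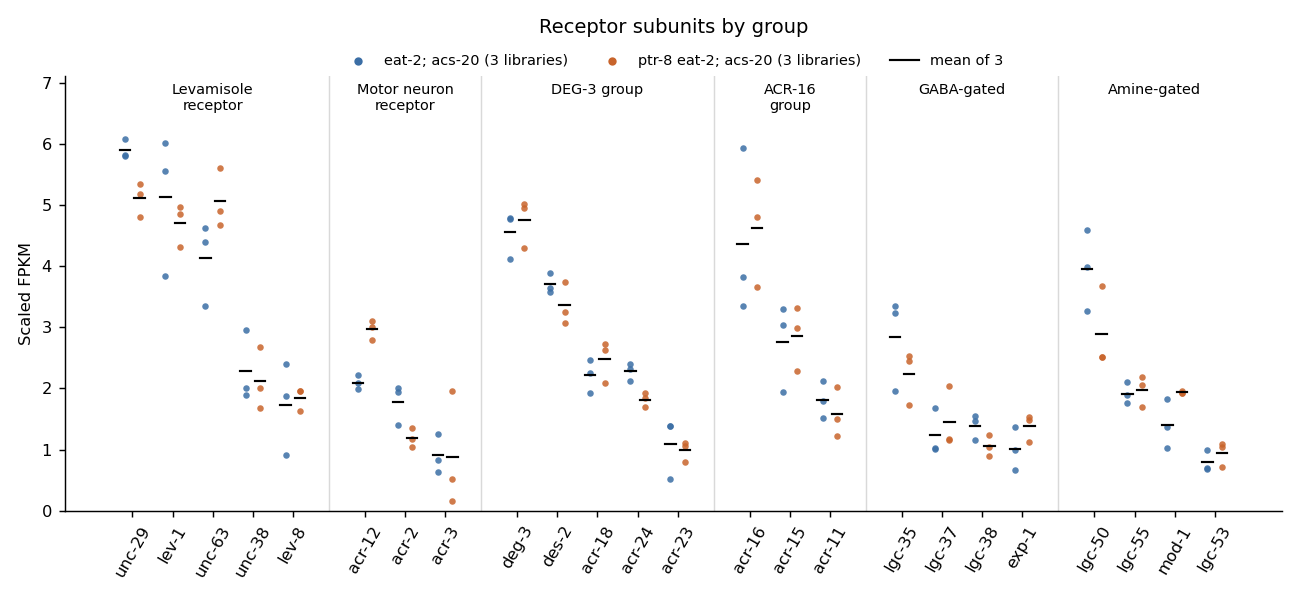
Scaled FPKM of 24 subunit genes in each library, grouped by receptor or subfamily; blue points are the reference strain, orange points the triple mutant, and black bars the means of 3 libraries. unc-29, lev-1 and unc-63 lie above unc-38 and lev-8, and acr-12 and acr-2 separate the strains in opposite directions without passing the test. Of all genes tested, 13.6% separate with the triple mutant higher and 14.1% with it lower.

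The DEG-3 subfamily includes deg-3 and des-2, whose products form a choline-sensitive channel of sensory neurons, and acr-23, a betaine receptor. deg-3 (chromosome V, 11412870 to 11415159) was at 4.11, 4.79 and 4.77 and at 4.29, 4.95 and 5.01. des-2 (chromosome V, 11415342 to 11420292) was at 3.57, 3.89 and 3.63 and at 3.07, 3.74 and 3.25. deg-3 exceeded des-2 in all 6 libraries, by 1.15-fold to 1.54-fold. The annotated des-2 gene is longer than the one in the files, ending at 11421705, and the FPKM ratio depends on the lengths the authors used. acr-23 was at 0.515, 1.39 and 1.39 and at 0.793, 1.11 and 1.05. Of 8 members grouped here with this subfamily (deg-3, des-2, acr-5, acr-17, acr-18, acr-20, acr-23 and acr-24), 7 were tested. Of these 7, 0 passed, against 2.29% of all genes tested. The strains did not overlap for acr-24, at 2.39, 2.31 and 2.13 in the reference strain and 1.84, 1.69 and 1.92 in the triple mutant (log2 fold change -0.22, adjusted p = 0.374). A separation with the triple mutant lower was seen in 14.1% of all genes tested.

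unc-49, which encodes the GABA-gated chloride channel of body wall muscle, was the most abundant of the members assigned a transmitter here. It (WBGene00006784, chromosome III, 10520676 to 10532702, plus strand) was at 35.6, 35.1 and 29.6 in the reference strain and at 37.9, 37.8 and 33.0 in the triple mutant. The strains overlapped (log2 fold change 0.11, 95% interval -0.16 to 0.38), and the estimate took the other sign, -1.07, in voom on implied fragments. The gene has 14 annotated transcripts, and its deposited interval was widest in triple mutant replicate 2, 41.3 to 59.0 around a deposited FPKM of 50.1. Its implied fragments were 129 in that library, against 466 in triple mutant replicate 1 at nearly the same level. The voom estimate thus follows the interval width as well as the level. The other 5 genes of the GABA-gated group never exceeded 3.35. exp-1, an excitatory GABA receptor of the enteric muscles, was at 0.997, 1.36 and 0.662 and at 1.12, 1.53 and 1.49. lgc-35, another GABA-gated cation channel, was at 1.95, 3.35 and 3.24 and at 1.72, 2.52 and 2.45. Strains overlapped for both. The log2 fold change of lgc-35 was -0.24, and -0.82 in voom on implied fragments. Its implied fragments were 93.6 in reference replicate 2 and 30.4 in triple mutant replicate 2. lgc-37 was at 1.02, 1.02 and 1.68 and at 1.16, 1.17 and 2.04. lgc-38 was at 1.15, 1.54 and 1.46 and at 1.04, 0.888 and 1.24. lgc-36, under the filter, stayed between 0.0705 and 0.253, at most 13.1 implied fragments. Of the 5 tested genes of this group 0 passed, against 2.29% of all genes tested, with log2 fold changes from -0.24 to 0.26.

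Channels gated by amines were low in both strains. lgc-50, a serotonin-gated channel, was at 3.99, 3.27 and 4.59 and at 2.51, 3.67 and 2.51 (log2 fold change -0.35, 95% interval -0.79 to 0.09, adjusted p = 0.323). mod-1, also gated by serotonin, was at 1.83, 1.37 and 1.03 and at 1.92, 1.96 and 1.92. Its triple mutant libraries were nearly equal and all above those of the reference strain, as in 13.6% of all genes tested. It did not pass (log2 fold change 0.30, 95% interval -0.11 to 0.71, adjusted p = 0.360), and without reference replicate 3 its log2 fold change was 0.18. lgc-55, gated by tyramine, was at 2.10, 1.89 and 1.75 and at 2.19, 2.06 and 1.69. lgc-53, gated by dopamine, was at 0.697, 0.995 and 0.687 and at 0.717, 1.10 and 1.03 and fell under the filter. Of 4 genes grouped as acetylcholine-gated chloride channels, lgc-46, lgc-47 and lgc-49 averaged 1.42, 1.66 and 1.00, and lgc-48 averaged 0.167. Of the 3 tested 0 passed, against 2.29% of all genes tested.

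The remaining 42 lgc genes, which are assigned no transmitter here, spanned the whole range of levels, from lgc-22 down to lgc-15, which is listed at 0 in all 6 libraries. Their mean levels had a median of 0.845, and 21 of the 42 passed the filter. Of these 21, 0 passed the strain test, against 2.29% of all genes tested. In the triple mutant 12 of the 21 had a higher and 9 a lower estimate. Their median log2 fold change was 0.04, against 0.01 over all genes tested. acr-6, the only acr gene outside the groups above, averaged 0.172 and fell under the filter.

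Members lay unevenly over the genome. The X chromosome held 24 of the 84 (28.6%), against 13.5% of protein-coding genes, and chromosome I held 7 (8.33%, against 14.4%). Of the 24 X-linked members 10 were tested, and of the 60 autosomal members 41. The median of the members' mean levels was 0.811 on X and 1.38 on the autosomes. There were 13 pairs of members with no other protein-coding gene between their starts, covering 22 members, and in 12 of the pairs both genes were on the same strand. Neighbours differed in level. deg-3 and des-2 are 182 bp apart and stayed within 1.54-fold, while lgc-10 exceeded acr-25 by 1.70-fold to 4.32-fold in 5 libraries. In triple mutant replicate 3 the ratio was 22.5, on 0.493 implied fragments of acr-25. The longest run was lgc-13 to lgc-18 on the X chromosome, 6 genes from 12109135 to 12128000. In it lgc-13 was at 0.879, 0.537 and 0.296 and at 1.18, 0.657 and 0.957, and the other 5 never exceeded 0.310, with at most 6 implied fragments in a library. lgc-15 was the only member of the 84 at 0 throughout. How reads that match more than 1 of these relatives were divided is not known, so the values of lgc-14, lgc-15, lgc-16, lgc-17 and lgc-18 are uncertain.

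**Figure D3:**
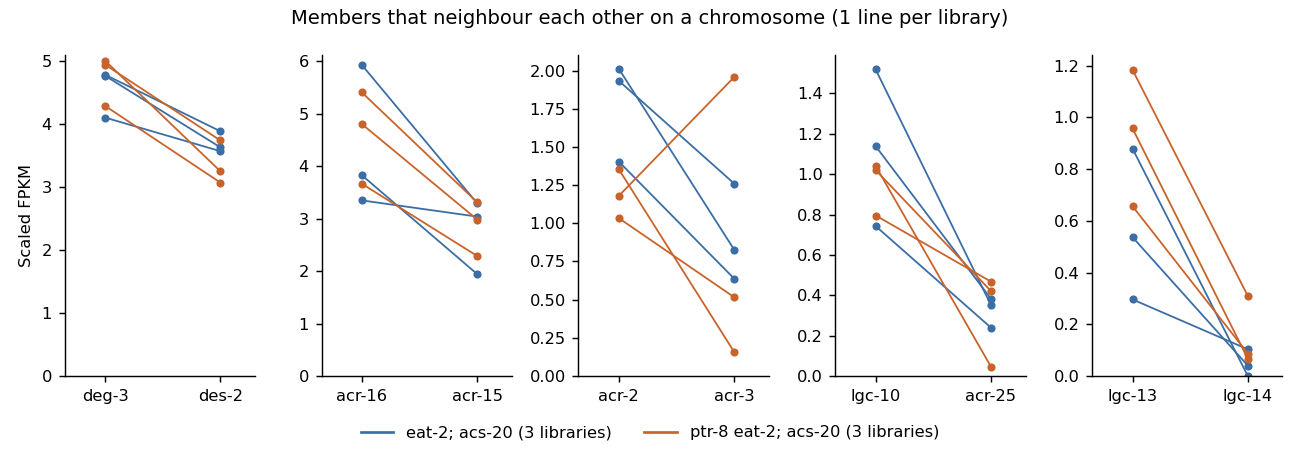
Scaled FPKM of 5 pairs of members that neighbour each other on a chromosome, with 1 line per library in blue for the reference strain and orange for the triple mutant; each panel has its own scale starting at 0. deg-3 lies above des-2 and acr-16 above acr-15 in all 6 libraries, whereas acr-2 lies above acr-3 in 5.

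Over the whole family no strain difference passed. Of the 51 tested members 0 were called in limma at an adjusted p below 0.05, and the lowest adjusted p was 0.166. Of all 15205 genes tested, 2.29% were called, 0.349% higher and 1.94% lower in the triple mutant, and that count of 348 ran from 62 to 672 with 1 library left out. At an unadjusted p below 0.05 there were 3 members (5.88%), against 20.7% of all genes tested. These shares are not a like comparison, since the tested members had a median level of 2.35 against 18.8. In limma voom on implied fragments 0 members were called, but only 73 of all 15205 genes were. That fit had 0 members at an unadjusted p below 0.05, and its share over all genes is not given here. The 3 members at an unadjusted p below 0.05 in limma on scaled FPKM were lgc-21 (log2 fold change -0.38, SE 0.12, adjusted p = 0.166), acr-12 and lgc-22 (-0.48, SE 0.19, adjusted p = 0.237). Without reference replicate 3 the estimate of lgc-22 was -0.30. Estimates were higher in the triple mutant for 28 members and lower for 23. Their median was 0.03 and the median over all genes tested 0.01.

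The estimates were bounded for most tested members. The 95% interval lay inside a log2 fold change of 1 in either direction for 50 of the 51, and its median half-width was 0.41, against 0.39 over all genes tested. The exception was lgc-19 (0.51, 95% interval -0.59 to 1.61). It was at 1.48, 2.37 and 0 in the reference strain and at 2.42, 1.69 and 1.63 in the triple mutant. Every deposited lower bound was 0, and the implied fragments were at most 3.25. That measure follows the width of the deposited interval and is not a read count. In triple mutant replicate 2 lgc-19 (1203 exonic bp) was at 1.69 on 0.35 implied fragments, and lgc-42 (1252 exonic bp) at 1.36 on 51.9. The 95% intervals are on log2(scaled FPKM + 1), which narrows them most at low levels, and the tested members had a median level of 2.35 against 18.8. Their half-widths and those of all genes are therefore not a like comparison of precision. A true fold change of a gene near 1 can exceed its interval. The 33 members under the filter were left out of that fit. In the fit with no filter, which covered 32 of them, 0 passed in limma and the lowest adjusted p was 0.288, for acr-7 (log2 fold change -0.34, 95% interval -0.68 to -0.0036). acr-7 was the only one of the 32 at an unadjusted p below 0.05, against 17.1% of all genes in that fit. All 32 lay under the filter that 15205 genes passed, so this too is not a like comparison.

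**Figure D4:**
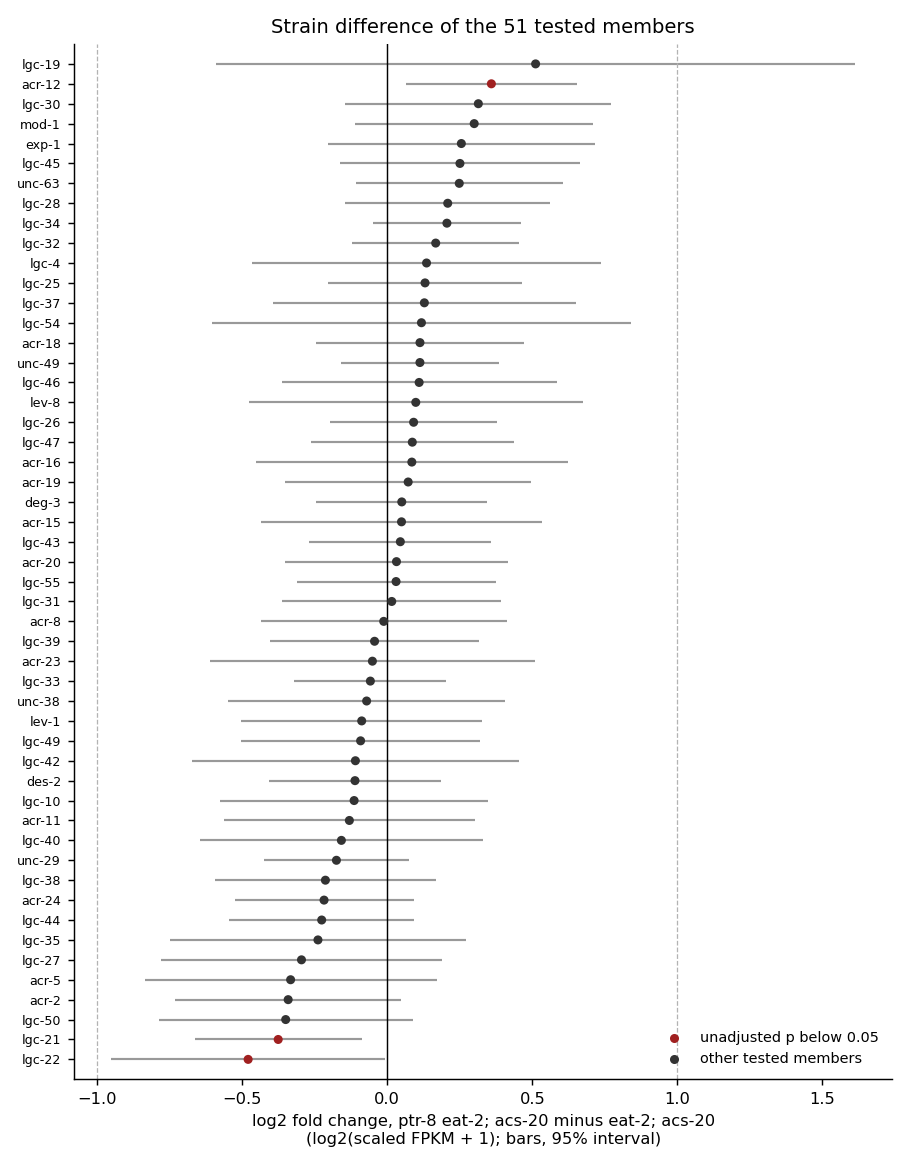
Log2 fold change of each of the 51 tested members, triple mutant minus reference on log2(scaled FPKM + 1), with its 95% interval from limma; red points have an unadjusted p below 0.05 and dashed lines mark 1 in either direction. The 3 red points are acr-12, lgc-21 and lgc-22, no member passes after adjustment, and the interval of lgc-19 alone crosses a dashed line.

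Strains separated without overlap for 9 tested members. The triple mutant libraries were all below for lgc-22, lgc-21, lgc-44, unc-29, acr-24 and acr-2, which is 11.8% of the tested members against 14.1% of all genes tested. They were all above for unc-63, acr-12 and mod-1, which is 5.88% against 13.6%. The tested members had a median level of 2.35 against 18.8 over all genes tested, so these shares are not a like comparison. lgc-44 was at 5.81, 7.64 and 6.17 and at 5.10, 5.67 and 5.48. Among the 33 members under the filter, acr-7 was lower in every triple mutant library (0.852, 1.44 and 1.42 against 0.808, 0.822 and 0.623), and lgc-12 (0.747, 0.735 and 0.473 against 0.945, 1.062 and 0.859) and lgc-41 were higher. The shares of all genes above cover only genes that passed the filter, so acr-7, lgc-12 and lgc-41 have no background share here. lgc-30, whose strains overlapped, was at 0.654, 1.02 and 0.404 and at 0.974, 1.16 and 1.11 (log2 fold change 0.31, adjusted p = 0.389, and 0.19 without reference replicate 3).

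Genes that make, clear or respond to the same transmitters gave no calls either. Of all genes tested 2.29% were called, and 20.7% had an unadjusted p below 0.05. Of 12 tested genes for assembly and clustering of acetylcholine receptors 0 passed (1 at an unadjusted p below 0.05), and their median log2 fold change was 0.05. The lowest p among them was that of emc-6, of the membrane protein complex of the endoplasmic reticulum, at 365, 371 and 341 and at 334, 263 and 276 (log2 fold change -0.31, adjusted p = 0.216). Among 7 tested genes of acetylcholine supply and breakdown 0 passed and 0 had an unadjusted p below 0.05, with log2 fold changes from -0.11 to 0.21. In GABA supply 0 of 5 passed and 0 had an unadjusted p below 0.05, led by the GABA transporter gene snf-11 at 8.09, 8.79 and 6.24 and at 9.79, 10.3 and 9.55 (log2 fold change 0.33, adjusted p = 0.249). In amine supply 0 of 6 passed and 1 had an unadjusted p below 0.05. That gene was tdc-1, for the tyrosine decarboxylase that makes tyramine, at 10.4, 10.2 and 8.68 and at 15.1, 15.7 and 19.8 (log2 fold change 0.72, SE 0.14, adjusted p = 0.0618). All its triple mutant libraries were above, as in 13.6% of all genes tested. tbh-1, which turns tyramine into octopamine, was at 13.6, 8.07 and 3.45 and at 18.2, 11.9 and 18.5 (log2 fold change 1.01, adjusted p = 0.262).

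Receptor genes outside the members were tested in the same way. Of 12 tested Cys-loop genes outside the naming rule 0 passed. Against 20.7% of all genes tested, 2 of the 12 had an unadjusted p below 0.05. These were avr-14, a subunit of glutamate-gated chloride channels, at 5.93, 6.32 and 7.42 and at 9.25, 8.43 and 8.98 (log2 fold change 0.39, adjusted p = 0.152), and glc-2 of the same channel type, at 6.98, 5.39 and 4.63 and at 7.67, 7.21 and 8.56 (0.41, adjusted p = 0.223). In both genes every triple mutant library was above every reference library, as in 13.6% of all genes tested. Of 5 tested ionotropic glutamate receptor genes 0 passed and 0 had an unadjusted p below 0.05. All these results rest on 3 libraries per strain.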

How the data were processed

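Per the file headers, the authors deposited 1 table per library with an FPKM per gene, its lower and upper bounds and a status word. Tools listed, with no roles, in the submitters' processing notes are FastQC 0.11.5, TopHat2, HTSeq and DESeq2. Genome build and strandedness: not given in the sources used here. File positions were raised by 1, since they start at 0. All 84 members matched an Ensembl 115 (WBcel235) gene, 17 with the same ends and 80 within 1000 bp. Outside that limit were lgc-45, des-2, lgc-54 and acr-21, whose FPKM may rest on partial models. The deposited FPKM were divided by a factor per library (0.869 to 1.33), a trimmed mean of log ratios (30% of the ratios and 5% of the levels were trimmed at either end). Tests kept genes at 1 scaled FPKM or more in 3 or more libraries, without loci shorter than 200 bp or genes marked FAIL, none of which was a member. limma 3.58.1 (R 4.3.3, intensity trend) was fitted to log2(scaled FPKM + 1) with strain as the only term, and p-values were adjusted by Benjamini-Hochberg over all 15205 genes. The procedure was checked on simulated data with independent noise per gene and library. Changes were planted only in genes above a set level. The check thus covers neither effects shared by the genes of a library nor changes in genes of lower level. Implied fragments are the square of FPKM over its standard error, the upper half-width being read as 2 standard errors. They follow the width of the deposited interval and need not equal read counts, as for lgc-19 and unc-49. Total depth is unknown.

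Members and lists were chosen with earlier results of these data known. Values in every library are given for the 12 tested members of lowest p, the 8 of highest level and the receptors listed by role, with up to 2 genes of lowest p per pathway list. acr-7, lgc-12, lgc-13 and lgc-19 were added after their values were seen. Without strand, reads cannot be told apart where 16 members overlap a protein-coding gene on the opposite strand, 12 of them (unc-38, exp-1, acr-7, acr-8, acr-16, acr-20, lgc-12, lgc-27, lgc-31, lgc-32, lgc-44 and lgc-54) within exons. No sequence is printed.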

Additional observations from a re-analysis of the deposited data

How the results depend on the processing

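No member was called under any alternative run, and the lowest adjusted p of a member ran from 0.0810, for lgc-22 without reference replicate 1, to 0.633 on FPKM as deposited. The number of genes called over the whole table was less stable: 348 as reported (53 higher and 295 lower), 363 with median-of-ratios scaling, 317 with upper-quartile scaling, 244 on FPKM as deposited (66 higher and 178 lower), 245 with no filter, 310 with a pseudocount of 0.1, 73 with voom on implied fragments, 160 with the replicate block, and 62 to 672 with 1 library left out (by replicate 1, 2 and 3: reference 672, 82 and 62, triple mutant 97, 163 and 77), so the background share moves with the libraries. Whether equal replicate numbers mark paired samples is not stated, and correlations over 3 libraries per strain cannot settle it. Same-numbered libraries correlated at 0.25, 0.05 and 0.03 in their deviations from strain means. The value for replicate 1 was the highest of any pairing, but not every library correlated best with its own number. On FPKM as deposited the median of all genes was 0.10 and that of the members 0.11. Leaving out reference replicate 1 gave a members' median of -0.03, leaving out triple mutant replicate 3 gave -0.01, and every other fit gave a median above 0. Of 373 comparisons of 29 named members with an alternative, 352 kept their sign and 21 turned, in 10 genes whose estimates were at most 0.13 in size. On FPKM as deposited acr-23, lev-1 and unc-38 turned to 0.022, 0.0080 and 0.020, and with voom to 0.092, 0.013 and 0.0057, where unc-49 was at -1.07 (adjusted p = 0.559). With 1 library left out, log2 fold changes ran from -0.052 to 0.28 for acr-16, -0.27 to 0.059 for acr-23, -0.0093 to 0.11 for deg-3, -0.25 to 0.016 for lev-1, -0.14 to 0.28 for lev-8, -0.035 to 0.26 for lgc-37, -0.021 to 0.16 for lgc-43, -0.020 to 0.10 for lgc-55 and -0.19 to 0.069 for unc-38. The cause was not tested. Leaving out a library moved the estimates of 21 of the 29 by more than 1.5 times at least once. Among those that kept their sign, the range was -0.65 to -0.30 for lgc-22, -0.47 to -0.09 for lgc-27, 0.13 to 0.32 for unc-63, 0.18 to 0.42 for mod-1, 0.19 to 0.35 for lgc-30, 0.13 to 0.38 for exp-1, -0.42 to -0.12 for lgc-35 and 0.03 to 0.18 for unc-49.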
